A study of Mus musculus with 29 samples.

Results

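Klhl6, Sh2d3c, Zbtb14, Zfp874a, Rsrp1, Hspb3, Mtx3 and Pigw are 8 of the 36982 genes in a count table of mouse microglia, the resident macrophages of the brain. They were brought together because their levels were lower after a first injection of lipopolysaccharide (LPS), a cell wall component of Gram-negative bacteria, and nearer to the saline level when LPS had also been given weeks before. The values that chose them were those of 4 comparisons, a first LPS against saline and LPS after earlier LPS against a first LPS, each in mice whose microglia had been depleted and had grown back and in undepleted mice. Those values are therefore given as a description, and nothing is read from any call of the members, or count of such calls, in these 4 comparisons. All 8 passed the filter on low counts, as did 16632 genes in all. A gene is said to be called when its adjusted p, in a fit over all genes tested, was under 0.05. The description of the set holds in part by the mean levels. In depleted mice all 8 were lower after a first LPS and all 8 were higher after earlier LPS than after a first LPS. In undepleted mice Pigw went the other way in both comparisons and the differences of the other 7 were smaller. Both signs of Pigw there turned when PL replicate 1 was left out.

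Microglia were sorted from brains of C57BL/6J mice, all male, and sequenced in bulk as 29 libraries in 6 groups, each library being 1 sample. Mice received LPS or saline (DPBS) into the abdomen at 10 weeks of age. From 1 week later they were given BLZ945 at 169 mg/kg per day for 5 days, or its vehicle, a cyclodextrin solution, and 5 weeks after the first injection they received a second one, 3 h before the brain was taken at 15 weeks. Each LPS dose was 1 mg/kg. BLZ945 blocks the CSF1 receptor, on which microglia depend for survival, and after it is withdrawn new microglia fill the brain. LBL mice (n = 5) received LPS, BLZ945 and LPS, PBL mice (n = 5) saline, BLZ945 and LPS, and PBP mice (n = 5) saline, BLZ945 and saline. LL mice (n = 5) received LPS, vehicle and LPS, PL mice (n = 4) saline, vehicle and LPS, and PP mice (n = 5) saline, vehicle and saline. Cells of high CD11b, intermediate CD45 and no surface Ly6C were sorted on a MoFlo XDP or a MoFlo Astrios. The gate does not separate new microglia from survivors of the depletion, and BLZ945 acts on other cells that carry the receptor too.

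LPS is sensed by the receptor TLR4, and microglia answer it with a wave of cytokine and NF-kB target genes while many genes of the resting state go down. A second exposure can be met with a weaker answer, called tolerance, or with a stronger one, called priming. The 8 genes belong to no single pathway. Klhl6 encodes a BTB-Kelch adaptor of the CUL3 ubiquitin ligase that is known from B cells, and Sh2d3c an SH2 domain adaptor that binds CAS family proteins in adhesion and migration. Zbtb14 and Zfp874a encode zinc finger proteins, the first a DNA-binding factor of the ZBTB family, and Rsrp1 a protein rich in arginine and serine. Hspb3 encodes a small heat shock protein best known from muscle, Mtx3 a metaxin of the mitochondrial outer membrane, and Pigw the enzyme that acylates the inositol of GPI anchors in the endoplasmic reticulum.

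The promoters of the 4 members whose LPS and saline groups did not overlap in either comparison of a first LPS are shown, so that the sequences in front of them can be compared. They are 300 bases each, from 250 bases before to 50 after the start of the gene, from RefSeq on GRCm38.p6. That build is older than the GRCm39 named for the counts, so these positions are those of the sequences only. The Klhl6 promoter lies at chr16:19983000-19983299 on the minus strand, that of Sh2d3c at chr2:32727439-32727738 on the plus strand, that of Zbtb14 at chr17:69382925-69383224 on the plus strand and that of Hspb3 at chr13:113663627-113663926 on the minus strand. Capitals mark a match to one of 9 short motifs searched on both strands.
Klhl6: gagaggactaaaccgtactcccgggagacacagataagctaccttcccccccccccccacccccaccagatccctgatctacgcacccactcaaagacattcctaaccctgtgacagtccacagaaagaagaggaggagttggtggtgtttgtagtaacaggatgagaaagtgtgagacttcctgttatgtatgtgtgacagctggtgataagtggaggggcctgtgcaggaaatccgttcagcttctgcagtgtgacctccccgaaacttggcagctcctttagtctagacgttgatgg
Sh2d3c: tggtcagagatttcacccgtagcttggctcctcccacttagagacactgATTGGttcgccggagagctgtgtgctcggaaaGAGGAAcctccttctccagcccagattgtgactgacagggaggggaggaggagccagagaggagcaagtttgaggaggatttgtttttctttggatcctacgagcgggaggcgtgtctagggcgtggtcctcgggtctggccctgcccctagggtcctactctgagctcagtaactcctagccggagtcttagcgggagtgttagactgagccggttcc
Zbtb14: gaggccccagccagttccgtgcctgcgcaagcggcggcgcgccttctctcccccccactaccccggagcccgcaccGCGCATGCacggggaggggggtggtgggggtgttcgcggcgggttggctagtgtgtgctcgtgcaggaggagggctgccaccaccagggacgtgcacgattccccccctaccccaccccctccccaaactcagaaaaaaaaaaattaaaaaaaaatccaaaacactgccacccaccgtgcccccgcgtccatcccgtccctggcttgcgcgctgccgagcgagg
Hspb3: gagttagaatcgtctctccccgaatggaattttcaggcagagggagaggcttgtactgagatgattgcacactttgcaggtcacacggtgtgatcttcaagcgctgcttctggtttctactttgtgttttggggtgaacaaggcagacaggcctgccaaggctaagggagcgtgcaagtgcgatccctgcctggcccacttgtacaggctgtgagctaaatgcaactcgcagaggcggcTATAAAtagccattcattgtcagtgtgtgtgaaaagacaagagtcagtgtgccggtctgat

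The motifs were CCGGAAG (an ETS core), GAGGAA (a PU.1 core), TGANTCA (AP-1), TGACGTCA (the cyclic AMP response element, CRE), CACGTG (an E-box), CCAAT (known to be bound by NF-Y), TATAAA (known to be bound by TBP), GCGCATGC (an NRF1 core) and GGGCGG (a GC box). GAGGAA was found in 28.3% and GGGCGG in 35.9% of the 27025 mouse promoters searched. No motif was found in more than 3 of the 8 members' promoters. Sh2d3c held GAGGAA at position -169 from the start and CCAAT, found in 38.0% of all promoters and also in that of Rsrp1, at -201. Zbtb14 held GCGCATGC at -174, which Rsrp1 also held, at -139 and -56, against 2.8% of all promoters. Hspb3 held TATAAA at -11 (14.2% of all promoters), and Klhl6 held none of the 9. Among the other members Zfp874a held TGACGTCA at -10 (1.85%), Mtx3 held CCGGAAG (9.14%) and, with Pigw, CACGTG (7.24%), and the GC box was found in Mtx3, Pigw and Rsrp1. TGANTCA, in 7.92% of all promoters, was in no member's window. The GC content of these windows was 43.7% in Zfp874a, 51.0% in Hspb3, 52.7% in Klhl6, 54.3% in Mtx3, 57.3% in Sh2d3c, 58.3% in Rsrp1, 66.7% in Zbtb14 and 73.0% in Pigw, against a median of 52.7% over all promoters. No motif was thus common to the 8, and a match or its absence in 300 bases is only a description of letters.

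Total counts per library were 6111284 to 9612363 in LBL, 5670450 to 7287523 in PBL, 5745164 to 11198323 in PBP, 6404550 to 12671476 in LL, 5806269 to 9056425 in PL and 7397399 to 8606743 in PP. Levels are given as CPM, the count of a gene relative to all counts of its library, scaled for library composition. The 8 listed microglia markers had counts in every group, with a summed level of 31200 to 66400 CPM per library, and Il1b, a cytokine gene that LPS induces, was at 237 to 390 CPM in PBL and 70.6 to 398 CPM in PL, against at most 4.03 CPM in PBP and 3.35 CPM in PP. The sorting instrument and the day nearly coincided with the groups. LBL, LL and PBL came from the XDP, LBL and LL from days 1 and 2 and PBL from day 3, whereas PL and PP came from the Astrios, PP on day 5 and PL on days 4 and 5 with 2 libraries each. PBP was sorted on the Astrios on day 4 except for replicate 5, which shared day 3 and the XDP with PBL. The RNA quality number was 7.4 to 7.9 in PBL, 6.5 to 9.1 in PL and 7.4 to 9.1 over the other groups, with the 7.4 in PBP replicate 5. The summed level of 7 neutrophil markers was 125 to 475 CPM in PBL and at most 35.1 CPM in any library of the other groups, and all 7 had counts in PBL, while Camp was at 0 in LBL, Lcn2 in PBP and Ltf in PP. That of 11 neuron markers was 90.9 to 230 CPM in LBL, 128 to 247 CPM in PBL, 27.6 to 177 CPM in PBP, 56.7 to 236 CPM in LL, 24.9 to 53.1 CPM in PL and 12 to 37.7 CPM in PP, with all 11 present in every group.

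**Figure D1:**
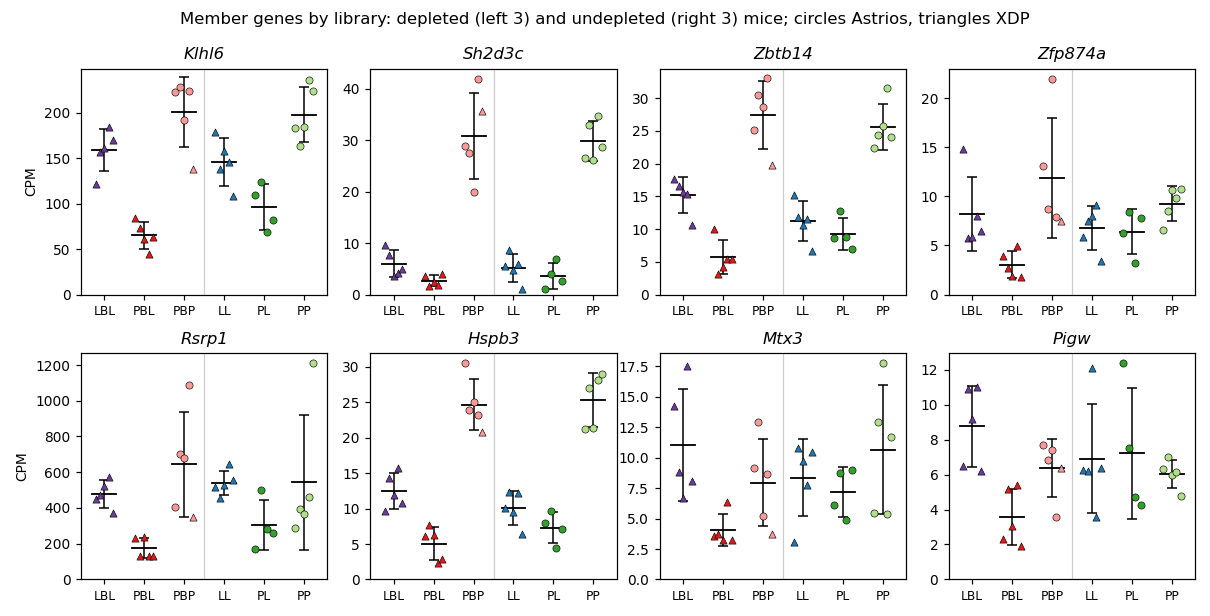
CPM of the 8 genes in each of the 29 libraries (vertical axes, linear, from 0), by group (horizontal axes). Each point is 1 library, drawn as a circle where it was sorted on the Astrios and as a triangle where it was sorted on the XDP; the long line is the group mean and the bars are 1 SD. PBL has the lowest mean for every gene, from 2.68 CPM for Sh2d3c to 174 CPM for Rsrp1.

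The BTB-Kelch adaptor gene Klhl6 (ENSMUSG00000043008, chromosome 16) had the smallest standard errors of the 8. In depleted mice it was at 122, 157, 161, 185 and 170 CPM in LBL, 84.6, 73.4, 61.7, 44.5 and 63.1 CPM in PBL, and 223, 228, 192, 224 and 138 CPM in PBP. In undepleted mice it was at 179, 138, 158, 146 and 108 CPM in LL, 110, 124, 69.4 and 82.3 CPM in PL, and 183, 163, 185, 236 and 224 CPM in PP. Every PBL library lay below every library of LBL and of PBP, and every PL library below every PP library, while LL and PL overlapped through PL replicates 1 and 2 and LL replicate 5. The log2 fold change was -1.62 (SE 0.17) in PBL against PBP and -1.04 (SE 0.18) in PL against PP. For LPS after earlier LPS it was 1.28 (SE 0.17) in LBL against PBL and 0.59 (SE 0.18) in LL against PL. The group means were 159 CPM in LBL, 65.5 CPM in PBL and 201 CPM in PBP, and 146 CPM in LL, 96.6 CPM in PL and 198 CPM in PP. In the order of these means LBL and LL were neighbours in the middle and lay within 1 SD of each other, as did PBP and PP at the top. In mice with both LPS injections, sampled 3 h after the second, the mean lay below that of saline mice. The log2 fold change was -0.34 (SE 0.16) in LBL against PBP and -0.45 (SE 0.16) in LL against PP, and both pairs of groups overlapped.

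Sh2d3c, the adaptor of CAS proteins (ENSMUSG00000059013, chromosome 2), had the deepest difference after a first LPS of the 8 and lay farthest below saline after both LPS injections. In depleted mice it was at 9.62, 7.78, 3.57, 4.14 and 5.06 CPM in LBL, 3.58, 1.6, 2.38, 1.86 and 3.96 CPM in PBL, and 28.8, 27.5, 20, 41.9 and 35.7 CPM in PBP. In undepleted mice it was at 5.55, 8.65, 4.85, 5.95 and 0.986 CPM in LL, 0.996, 3.92, 6.98 and 2.65 CPM in PL, and 26.5, 33, 26.2, 34.8 and 28.6 CPM in PP. All libraries that had received a second injection of LPS lay below 10 CPM and all others at 20 CPM or more, with no overlap, while among the LPS groups LBL overlapped PBL and LL overlapped PL. The log2 fold change was -3.51 (SE 0.4) in PBL against PBP and -3.03 (SE 0.41) in PL against PP, a level 11.4 and 8.14 times lower. It was 1.16 (SE 0.41) in LBL against PBL and 0.52 (SE 0.41) in LL against PL. These values rest on few reads, with 9 to 29 counts per library in PBL and 8 to 59 in PL. Against saline mice Sh2d3c was at -2.35 (SE 0.36) in LBL against PBP and -2.5 (SE 0.36) in LL against PP. An annotated gene on the opposite strand, 6330409D20Rik, overlaps Sh2d3c, and because the strand setting of the counting is not given in the sources used here, reads of the pair cannot be told apart.

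Zbtb14, the ZBTB factor (ENSMUSG00000049672, chromosome 17), lay between these 2 patterns. In depleted mice it was at 17.7, 16.5, 15.7, 15.3 and 10.6 CPM in LBL, 10, 3.2, 4.25, 5.43 and 5.46 CPM in PBL, and 25.1, 30.5, 28.6, 33 and 19.7 CPM in PBP. In undepleted mice it was at 15.2, 11.9, 10.6, 11.5 and 6.68 CPM in LL, 8.59, 12.7, 8.76 and 7.01 CPM in PL, and 22.4, 24.3, 25.8, 31.5 and 24.1 CPM in PP. The 3 depleted groups did not overlap, with LBL in the middle, whereas LL and PL overlapped and both lay below PP. Its log2 fold change was -2.27 (SE 0.24) in PBL against PBP, -1.48 (SE 0.24) in PL against PP, 1.42 (SE 0.24) in LBL against PBL and 0.28 (SE 0.24) in LL against PL. Against saline it was at -0.86 (SE 0.22) in LBL against PBP and -1.2 (SE 0.22) in LL against PP. The opposite-strand gene AC122487.1 overlaps it, with the same limit on telling reads apart.

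Hspb3, the small heat shock protein gene (ENSMUSG00000051456, chromosome 13), followed the same order. In depleted mice it was at 9.62, 14.3, 11.9, 15.7 and 10.8 CPM in LBL, 6.09, 7.64, 6.29, 2.33 and 2.87 CPM in PBL, and 30.5, 23.9, 25.1, 23.2 and 20.8 CPM in PBP. In undepleted mice it was at 10.1, 12.3, 9.55, 12.2 and 6.46 CPM in LL, 7.97, 9.63, 4.38 and 7.15 CPM in PL, and 21.2, 27, 21.4, 28.1 and 29 CPM in PP. Again LBL lay wholly between PBL and PBP, and LL overlapped PL but not PP. The log2 fold changes were -2.31 (SE 0.25) in PBL against PBP, -1.81 (SE 0.26) in PL against PP, 1.33 (SE 0.25) in LBL against PBL and 0.49 (SE 0.26) in LL against PL. Relative to saline they were -0.98 (SE 0.23) in LBL against PBP and -1.32 (SE 0.23) in LL against PP.

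Rsrp1, the arginine and serine rich protein gene (ENSMUSG00000037266, chromosome 4), was widely spread in saline mice. In depleted mice it was at 448, 474, 522, 576 and 374 CPM in LBL, 233, 134, 238, 133 and 132 CPM in PBL, and 407, 700, 681, 1090 and 348 CPM in PBP. In undepleted mice it was at 515, 458, 527, 644 and 554 CPM in LL, 173, 499, 280 and 262 CPM in PL, and 286, 392, 368, 463 and 1210 CPM in PP. All PBL libraries lay below all LBL and all PBP libraries, but PL overlapped PP, and LL overlapped PL only through PL replicate 2. The log2 fold change was -1.89 (SE 0.36) in PBL against PBP and -0.84 (SE 0.38) in PL against PP, and it was 1.46 (SE 0.36) in LBL against PBL and 0.83 (SE 0.37) in LL against PL. Single libraries weighed on PL against PP, which was at -1.19 without PL replicate 2 and at -0.32 without PP replicate 5. Levels after both LPS injections overlapped those of saline mice, at -0.43 (SE 0.35) in LBL against PBP and -0.01 (SE 0.35) in LL against PP.

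The other 3 members followed the description in depleted mice and overlapped in undepleted ones. The zinc finger gene Zfp874a (ENSMUSG00000069206, chromosome 13) was at 5.74 to 14.8 CPM in LBL, 1.78 to 4.97 CPM in PBL and 7.46 to 22 CPM in PBP, 3 ranges of which PBL overlapped neither of the others. In undepleted mice it was at 3.4 to 9.13 CPM in LL, 3.2 to 8.38 CPM in PL and 6.57 to 10.8 CPM in PP, all overlapping. Its log2 fold change was -1.96 (SE 0.36) in PBL against PBP and 1.42 (SE 0.36) in LBL against PBL, but -0.54 (SE 0.36) in PL against PP and 0.09 (SE 0.36) in LL against PL. Without LBL replicate 1, the highest library, the value in LBL against PBL was 1.11.

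Mtx3, the metaxin gene (ENSMUSG00000021704, chromosome 13), was at 6.67 to 17.5 CPM in LBL, 3.23 to 6.36 CPM in PBL and 3.73 to 12.9 CPM in PBP. It was at 3.07 to 10.8 CPM in LL, 4.85 to 9 CPM in PL and 5.4 to 17.8 CPM in PP. PBL lay below LBL throughout, and every other pair of groups among these comparisons overlapped. The log2 fold change was -0.98 (SE 0.37) in PBL against PBP, -0.58 (SE 0.38) in PL against PP, 1.45 (SE 0.37) in LBL against PBL and 0.24 (SE 0.38) in LL against PL. The mean after both LPS injections in depleted mice was above that of their saline mice, at 0.47 (SE 0.35) in LBL against PBP.

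Pigw, the gene of GPI anchor synthesis (ENSMUSG00000045140, chromosome 11), went against the description in undepleted mice in the mean. It was at 6.28, 6.2, 12.1, 3.6 and 6.35 CPM in LL, 12.4, 7.49, 4.73 and 4.23 CPM in PL, and 6.32, 7.01, 5.95, 6.12 and 4.79 CPM in PP, so that the PL libraries spanned the PP range on both sides. In depleted mice it was at 6.47, 10.9, 9.15, 11 and 6.22 CPM in LBL, 2.33, 5.15, 3.06, 5.43 and 1.91 CPM in PBL, and 7.68, 6.82, 7.39, 3.58 and 6.37 CPM in PBP. There PBL lay below LBL throughout and overlapped PBP. The log2 fold change was 0.26 (SE 0.34) in PL against PP and -0.07 (SE 0.34) in LL against PL, against -0.83 (SE 0.34) in PBL against PBP and 1.3 (SE 0.33) in LBL against PBL. Without PL replicate 1, PL against PP was at -0.15 and LL against PL at 0.36. Both signs in undepleted mice thus turned without that library, and with all libraries both values lay within 1 SE of 0. Myo19, on the opposite strand, overlaps Pigw, and their reads cannot be told apart either.

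**Figure D2:**
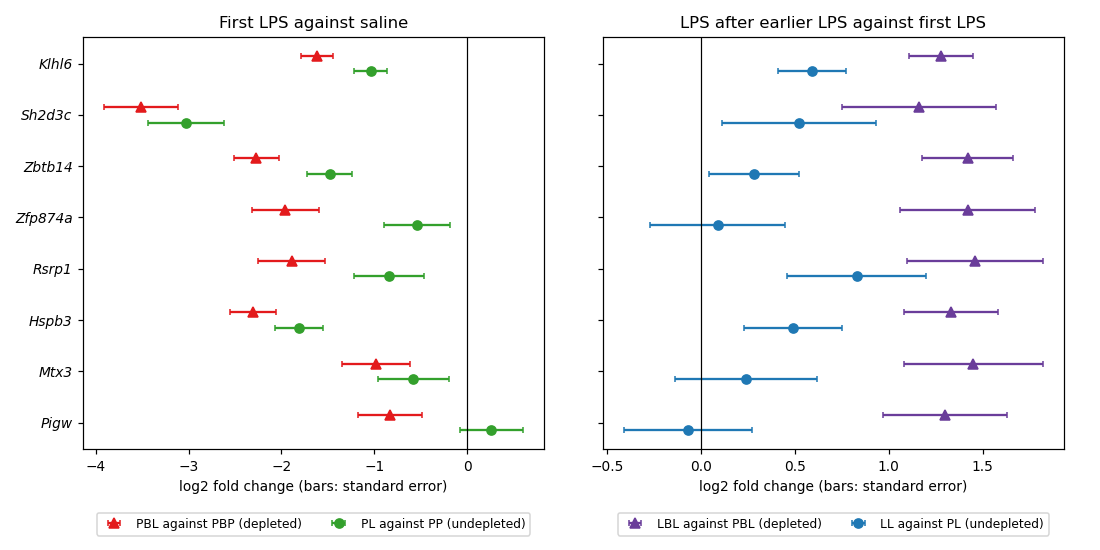
Log2 fold change of each gene (horizontal axes; bars are 1 SE) for a first LPS against saline on the left and for LPS after earlier LPS against a first LPS on the right. Triangles are depleted and circles undepleted mice. On the left the values run from -3.51 to 0.26, and on the right those of depleted mice lie between 1.16 and 1.46 and those of undepleted mice between -0.07 and 0.83.

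Counted over the set by the adjusted p of edgeR's quasi-likelihood fit, in PBL against PBP 8 of the 8 members were called lower, where 21.5% of all genes tested were, and 6 had groups that did not overlap (all but Mtx3 and Pigw). There 7 were called with RLE scaling, with DESeq2, with no filter and with the compared groups alone, each time without Pigw, and 6 with limma voom, without Mtx3 and Pigw. Mtx3 lost its call without PBP replicate 1, 2 or 4 or PBL replicate 1, 2, 3 or 5, at -0.95 to -0.74, and Pigw without PBP replicate 1, 2, 3 or 5 or PBL replicate 1, 3 or 5, at -0.82 to -0.66. In PL against PP 4 members were called lower (11.9% of all genes), Klhl6, Sh2d3c, Zbtb14 and Hspb3, the same 4 whose groups did not overlap. In LBL against PBL 7 members were called higher (2.74% of all genes), all but Sh2d3c, the one whose groups overlapped, while DESeq2 called all 8. Zfp874a was not called there without LBL replicate 1 (1.11), nor Mtx3 without LBL replicate 4 (1.21). None of the members was called higher in LL against PL (0.752% of all genes) and all 8 overlapped there. At an unadjusted p under 0.05 the fit gave 2 members in LL against PL, and DESeq2 and limma voom each called 1, Klhl6, which edgeR also called without PL replicate 2 (0.74) or without LL replicate 5 (0.69). The median log2 fold change of the members was -1.92 in PBL against PBP, -0.94 in PL against PP, 1.37 in LBL against PBL and 0.38 in LL against PL, while that of all genes tested was 0 or 0.01 in each. The members were chosen on these contrasts, so nothing is read from these counts and medians. No share of all genes is given for groups without overlap or for an unadjusted p under 0.05, so those counts have no background here. The 4 comparisons also share libraries: PBL and PL each enter a pair, with opposite sign.

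Relative to mice that never received LPS, 3 members were lower in every library after both LPS injections as well. No group had earlier LPS and a final saline injection, so what the earlier LPS alone left behind cannot be read here. Zbtb14, Hspb3 and Sh2d3c did not overlap between LBL and PBP or between LL and PP, and the other 5 overlapped in both. In the mean Sh2d3c was 5.09 times lower in LBL than in PBP and 5.67 times lower in LL than in PP, and the 5 overlapping members lay between -0.53 and 0.47 on the log2 scale in LBL against PBP and between -0.45 and 0.19 in LL against PP. LL and PP share neither instrument nor sorting day. LBL and PBP share no day, and only PBP replicate 5 came from the XDP of LBL. Treatment and sorting thus cannot be told apart in either comparison, and no share of all genes without overlap is given. In these bulk samples, fewer cells of a type and less RNA per cell cannot be told apart.

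Sorting day and instrument moved with the groups. LL against PL is wholly a comparison between the XDP and the Astrios, and the earlier LPS and the instrument cannot be told apart by these 2 groups. With the sorter as a term, which the model estimates from PBP alone, the one group sorted on both instruments, the log2 fold change in LL against PL was 1.25 for Klhl6, 0.85 for Zbtb14, 0.79 for Hspb3, 1.51 for Mtx3, 0.88 for Zfp874a, 1.88 for Rsrp1, 0.25 for Sh2d3c and -0.08 for Pigw. Of these 6 were more than 1.5 times the values without the term, and none was called (0.00601% of all genes were called higher in that fit). The difference between the instruments rests there on PBP replicate 5 against the other PBP libraries. LBL and PBL were all sorted on the XDP but share no day, so that the earlier LPS and the sorting day cannot be told apart between them. PL and PP share day 5 through 2 PL libraries. Within that day the log2 fold change was -1.37 for Klhl6, -1.68 for Zbtb14, -2.12 for Hspb3 and -2.6 for Sh2d3c. It was -0.61 for Mtx3, -0.74 for Zfp874a, -0.99 for Rsrp1 and -0.41 for Pigw. PL replicate 3, 1 of these 2 libraries, had the lowest RNA quality number of all libraries, 6.5. The members were chosen on PL against PP, so these values are a description and no check on sorting day.

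PBP replicate 5 is the only saline library from the day and instrument of PBL. It lay below all other PBP libraries for 6 of the 8 members, at 138 CPM against 192 to 228 CPM for Klhl6, 348 CPM against 407 to 1090 CPM for Rsrp1 and 19.7 CPM against 25.1 to 33 CPM for Zbtb14. Pigw and Sh2d3c were the exceptions, with Sh2d3c at 35.7 CPM against 20 to 41.9 CPM. This library was still above every PBL library for 7 members, and for Mtx3, at 3.73 CPM, it lay within the PBL range of 3.23 to 6.36 CPM. No share of all genes stands beside these counts of 6 and 7, so they are not read as a trait of the members. With XDP libraries only, so that replicate 5 alone stands for PBP, 5 members were called lower (4.92% of the genes tested there), Klhl6 (-1.1), Zbtb14 (-1.82), Hspb3 (-2.08), Rsrp1 (-1.02) and Sh2d3c (-3.74). Zfp874a was at -1.32 and Pigw at -0.86 without a call, and Mtx3 was at 0.09. In the fit of all libraries with the sorter as a term 4 were called lower (5.98% of all genes), Klhl6 (-1.07), Zbtb14 (-1.8), Hspb3 (-2.06) and Sh2d3c (-3.72). That lone library is assumed by the model to vary like the other groups. Without replicate 5, 7 members were called lower, all but Pigw (-0.82), and Klhl6 was at -1.73 and Rsrp1 at -2.04.

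**Figure D3:**
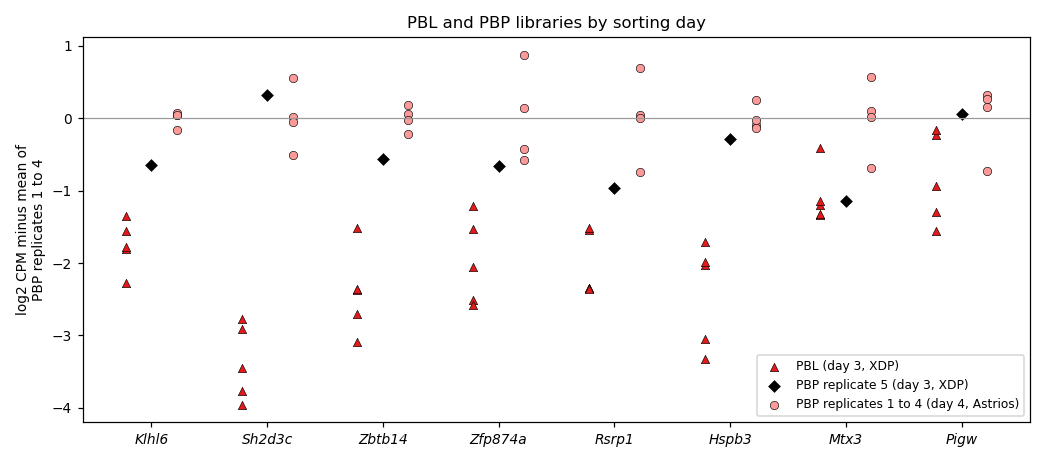
Log2 CPM of each gene minus the mean of PBP replicates 1 to 4 (vertical axis) for the PBL libraries, PBP replicate 5 and PBP replicates 1 to 4, 1 point per library. Replicate 5 (black diamonds), from the day and sorter of PBL, lies above all PBL libraries for 7 of the 8 genes and below replicates 1 to 4 for 6. No share over all genes is given for these counts.

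RNA quality and neutrophil markers moved with PBL, too, while the neuron marker sum split by sorter. That sum was at least 56.7 CPM in every XDP library, with PBP replicate 5 at 177 CPM, and at most 53.1 CPM in every Astrios library. PBL, the group with the lowest mean of all 8 members, had the lowest mean RNA quality number, 7.64, against 8.22 to 8.86 in the other groups, and the neutrophil marker sum given above. With the RNA quality number in the model 6 members were called lower in PBL against PBP (16.7% of all genes), without Mtx3 (-0.77) and Pigw (-0.61). In LBL against PBL 6 were called higher (1.18% of all genes), without Zfp874a (1.22, against 1.42 with no such term) and Pigw (1.13, against 1.3) and with Sh2d3c (1.52, against 1.16). Neutrophil markers were at 0.679 to 4.72 CPM in LBL and at 0 to 6.51 CPM in PBP. The summed level of the 8 microglia markers was 31200 to 44300 CPM in PBL and 45300 to 62900 CPM in PBP, and 43500 to 50800 CPM in PL and 55900 to 66400 CPM in PP. Within PBP the 45300 CPM was that of replicate 5, against 59600 to 62900 CPM in the other replicates. The sum of 7 lymphocyte markers moved with a first LPS in the direction of the members and without overlap, at 154 to 261 CPM in PBL against 467 to 728 CPM in PBP, and at 313 to 351 CPM in PL against 765 to 945 CPM in PP. It was 204 to 257 CPM in LBL and 291 to 400 CPM in LL. Of these 7, between 2 and 4 had counts in each group. The part of neutrophil, neuron and lymphocyte marker RNA in the members' values was not tested.

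Depletion without LPS was read from PBP against PP, a contrast that did not enter the choice of the members, although its libraries did. PBP and PP share no sorting day, so depletion and day cannot be told apart between them. None of the 8 was called, with adjusted p between 0.694 and 0.981 by edgeR's quasi-likelihood test, where 0.529% of all genes were called in either direction; none was under 0.05 unadjusted, and DESeq2 and limma voom called 0. The log2 fold changes lay between -0.42 for Mtx3 and 0.35 for Zfp874a. Klhl6 had the tightest 95% interval, from -0.31 to 0.35, and Zbtb14 (-0.34 to 0.53) and Hspb3 (-0.49 to 0.42) had the next narrowest. For Mtx3 (-1.12 to 0.29), Zfp874a (-0.31 to 1.01), Rsrp1 (-0.47 to 0.96), Pigw (-0.58 to 0.72) and Sh2d3c (-0.62 to 0.72) the intervals were wider. The summed level of 6 markers of border-associated macrophages, cells that also depend on the CSF1 receptor, moved with depletion, at 11.1 to 23.6 CPM in LBL, 15.5 to 33.1 CPM in PBL and 19.9 to 42.6 CPM in PBP, and at 51.7 to 86.7 CPM in LL, 79 to 146 CPM in PL and 49.1 to 106 CPM in PP, with all 6 present in every group. That of 6 endothelial markers was 8.05 to 14.6 CPM in LBL, 8.68 to 15.9 CPM in PBL and 7.44 to 19.4 CPM in PBP, and 14.1 to 30.8 CPM in LL, 17.6 to 32.7 CPM in PL, where Cldn5 was at 0, and 33.8 to 41.6 CPM in PP. The part of these cells in the depletion contrasts was not tested.

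With a first LPS the depleted mice had lower levels of all 8 members in the mean. In PBL against PL 4 of the 8 were called lower by edgeR's quasi-likelihood test (11.1% of all genes tested): Klhl6 (log2 fold change -0.56, SE 0.18, adjusted p = 0.0221), Zbtb14 (-0.7, SE 0.26, adjusted p = 0.0464), Zfp874a (-1.06, SE 0.38, adjusted p = 0.0405) and Pigw (-1.02, SE 0.35, adjusted p = 0.0355). The libraries of the 2 groups overlapped for each of them. Mtx3 (-0.82, 95% interval -1.62 to -0.02), Rsrp1 (-0.8, -1.56 to -0.04), Hspb3 (-0.53, -1.09 to 0.02) and Sh2d3c (-0.43, -1.34 to 0.48) were not called. PBL and PL entered the choice of the members, and a low PBL value favoured a gene in both depleted comparisons, so these calls are not independent of it. The 2 groups also differ in instrument and day throughout, which cannot be told apart from depletion. No member was called without PBL replicate 3, without PL replicate 1 or without PL replicate 2, and none was called with the sorter (0.018% of all genes were lower) or with the RNA quality number (6.89%) in the model. The values with the RNA quality number were -0.43 for Klhl6, -0.6 for Zbtb14, -0.86 for Zfp874a and -0.84 for Pigw. With the sorter they were -0.13 for Zbtb14, -0.27 for Zfp874a and -1.02 for Pigw, and they turned to 0.1 for Klhl6, 0.45 for Mtx3 and 0.25 for Rsrp1.

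After both LPS injections no difference between depleted and undepleted mice was called in these genes. Both groups had entered the choice of the members, each against its group with a first LPS. In LBL against LL none of the 8 was called (1.21% of all genes in either direction), with adjusted p between 0.41 and 0.887 by edgeR's quasi-likelihood test, none under 0.05 unadjusted, and 0 calls by DESeq2 and limma voom. The log2 fold changes ran from -0.17 for Rsrp1 to 0.44 for Zbtb14, whose 95% interval was -0.01 to 0.9. That of Klhl6 was -0.2 to 0.46, that of Hspb3 -0.17 to 0.79 and that of Mtx3, the widest on the upper side, -0.31 to 1.1. These groups share the XDP, but LBL has 4 libraries of day 1 and 1 of day 2, and LL 1 of day 1 and 4 of day 2. With sorting day as a term, an alternative added after the data were seen, the values lay between -0.32 for Rsrp1 and 0.95 for Sh2d3c, and no member was called.

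**Figure D4:**
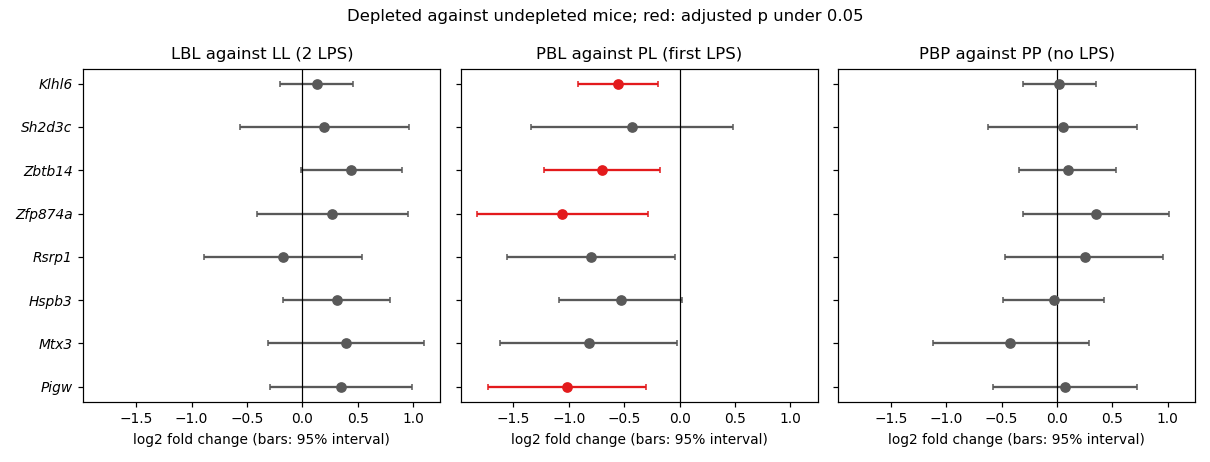
Log2 fold change of depleted against undepleted mice (horizontal axes; bars are 95% intervals) for 2 LPS injections, 1 and none; red marks an adjusted p under 0.05. The intervals of PBP against PP and of LBL against LL include 0 for all 8 genes, and in PBL against PL the 4 red genes lie between -1.06 and -0.56.

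The difference between the 2 effects of earlier LPS, that in depleted mice (LBL against PBL) and that in undepleted mice (LL against PL), was tested in the same model. It was above 0 for all 8 members, from 0.63 for Rsrp1 to 1.37 for Pigw, but none was called by edgeR's quasi-likelihood test, with adjusted p between 0.193 and 0.627, where 0.0241% of all genes were. At an unadjusted p under 0.05 there were 6, and DESeq2 and limma voom called 0. For Zbtb14 the difference was 1.14 (SE 0.34, 95% interval 0.45 to 1.83, adjusted p = 0.193), and for Sh2d3c it was 0.64 (SE 0.58, -0.55 to 1.82). With the sorter as a term the difference was 0.03 for Klhl6, against 0.69 without it, and it turned to -0.06 for Mtx3 and -0.42 for Rsrp1, while the other 5 lay between 0.54 and 1.38. The difference between the 2 effects of a first LPS, PBL against PBP minus PL against PP, ran from -1.41 for Zfp874a to -0.4 for Mtx3, again with no member called (adjusted p 0.248 to 0.782 by edgeR's quasi-likelihood test, 5 under 0.05 unadjusted, 0 by DESeq2 and by limma voom), in a comparison where 0% of all genes were called. All 8 members were chosen on the contrasts that make up these differences, so their common sign is not independent of the choice. Nor are the counts of 6 and 5 under 0.05 unadjusted. The shares of all genes given here are at an adjusted p, and none is given at the unadjusted threshold.

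The families to which the members belong did not move as one. Over all genes tested, 21.5% were called higher and 21.5% lower in PBL against PBP, 14.2% higher and 11.9% lower in PL against PP, 2.74% higher and 4% lower in LBL against PBL and 0.752% higher and 2.03% lower in LL against PL. With the sorter as a term 7.4% were called higher and 5.98% lower in PBL against PBP, and the family counts there were 1 higher and 5 lower for the CUL3 adaptors, 2 and 1 for the NSP and CAS adaptors, 4 and 4 for the ZBTB factors, 2 and 0 for the Zfp genes of chromosome 13, 6 and 0 for the splicing genes, 1 and 0 for the chaperones, 2 and 0 for the mitochondrial genes, 1 and 1 for the GPI anchor genes and 0 and 10 for the homeostatic genes. Of 36 tested BTB-Kelch and other CUL3 adaptor genes beside Klhl6, 3 rose and 18 fell in PBL against PBP, and 3 rose and 13 fell in PL against PP. Klhl25 fell, with log2 fold changes of -1.42 (SE 0.24) and -1.85 (SE 0.26) in these comparisons, as did Klhl24, with -1.32 (SE 0.14) and -1.02 (SE 0.15). Klhl2, whose product directs WNK kinases to degradation, rose by 1.92 (SE 0.18) and 2.03 (SE 0.19). In LBL against PBL 6 of the 36 rose, Klhl38, Enc1, Kbtbd8, Klhl7, Klhl24 and Ivns1abp. The list's median was -0.45 in PBL against PBP and -0.38 in PL against PP, against 0 over all genes.

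Of 17 other genes of NSP and CAS adaptors and their partners, the family of Sh2d3c, 5 rose and 5 fell in PBL against PBP and 4 rose and 2 fell in PL against PP. Crk, an adaptor that CAS proteins recruit, rose by 0.85 (SE 0.12) and 0.98 (SE 0.13), and Rap1b, a small GTPase of adhesion, by 0.71 (SE 0.13) and 0.81 (SE 0.14). Bcar1, which encodes the CAS protein p130Cas, had 0 counts in every PP library and a mean of 1.74 CPM in PL, at least 23.1-fold higher than the level of 3 counts over the PP group. The list's median was -0.14 in PBL against PBP and -0.23 in PL against PP.

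ZBTB factors other than Zbtb14 were split, with 7 higher and 11 lower of 37 in PBL against PBP and 6 higher and 6 lower in PL against PP. Zbtb16 (PLZF) rose by 5.1 (SE 0.6) and 5.17 (SE 0.59), Zbtb21 by 1.14 (SE 0.13) and 1.43 (SE 0.14), and Zbtb11 by 1.37 (SE 0.17) and 1.38 (SE 0.18). After earlier LPS Zbtb34, Zbtb38 and Zbtb1 were higher in LBL against PBL. Among 31 other Zfp genes of chromosome 13, where Zfp874a lies, 2 rose and 15 fell in PBL against PBP and 3 rose and 7 fell in PL against PP. Zfp85 fell, at -1.38 (SE 0.35) and -2.12 (SE 0.39), as did Zfp273, at -1.88 (SE 0.51) and -2.2 (SE 0.55), while Zfp429 rose by 1.03 (SE 0.26) in PL against PP and was at 0.33 (SE 0.25) in PBL against PBP without a call. One gene of this list, Zfp595, was higher in LBL against PBL. Zinc finger genes of this chromosome, Zfp874a among them, include close copies, between which the counting could split reads.

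Serine and arginine rich proteins and other splicing genes were called higher more often than lower, where Rsrp1 was lower in the mean. Of 34 tested, 20 rose and 1 fell in PBL against PBP, and in PL against PP 16 rose and 18 were not called, with a list median of 0.49 and 0.37. Srsf5 rose by 1.08 (SE 0.15) and 1.15 (SE 0.16), Srsf7 by 0.51 (SE 0.16) and 1.12 (SE 0.17), and the RNA helicase gene Ddx5 by 0.46 (SE 0.09) and 0.81 (SE 0.1). After earlier LPS Srrm2, Luc7l2, Son, Rbm25 and Rbm39 were lower and Srsf2 higher in LBL against PBL, and Srsf5 was lower in LL against PL.

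Chaperone, mitochondrial and GPI anchor genes were called in both directions. Of 11 small heat shock proteins and their chaperone partners 2 rose and 2 fell in PBL against PBP and 3 rose in PL against PP. Hsp90aa1 rose by 0.61 (SE 0.15) and 0.95 (SE 0.15) and was lower in LBL against PBL. Dnajb1 rose by 0.5 (SE 0.17) and Hspa1a by 2.61 (SE 0.9) in PL against PP, and they were at -0.3 (SE 0.16) and -0.66 (SE 0.7) in PBL against PBP without a call. Of 23 genes of metaxins and outer-membrane import 2 rose and 3 fell in PBL against PBP and 1 rose in PL against PP, the import receptor gene Tomm20 (0.45, SE 0.15, and 0.48, SE 0.16). Of 31 GPI anchor genes 2 rose and 9 fell in PBL against PBP and 2 rose and 3 fell in PL against PP, among them Mppe1 (-1.47, SE 0.23, and -1.58, SE 0.25), Pigh (-1.36, SE 0.19, and -0.82, SE 0.19) and Pign (0.75, SE 0.12, and 0.43, SE 0.12). Pigg and Pigv were higher in LBL against PBL.

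Homeostatic microglia genes, a well known group that LPS lowers, were lower after a first LPS. Of 27 tested 21 fell in PBL against PBP and 15 in PL against PP, with a list median of -0.45 and -0.38. In LBL against PBL 3 were called higher, P2ry13 (0.46, SE 0.11) and Golm1 (0.34, SE 0.1) among them, and 24 were not called, with a list median of 0.16. In LL against PL 1 was called higher and 26 were not called, with a list median of -0.06. Sall1, whose product is a transcription factor that keeps microglial identity, fell after a first LPS, at -2.65 (SE 0.17) and -2.16 (SE 0.18) on the log2 scale, as did Gpr34, at -1.62 (SE 0.12) and -1.27 (SE 0.13), and the fractalkine receptor gene Cx3cr1, at -1.24 (SE 0.11) and -1.06 (SE 0.12). In LBL against PBL Sall1 was at 0.43 (SE 0.16), Gpr34 at 0.2 (SE 0.12) and Cx3cr1 at 0.19 (SE 0.11). In LL against PL they were at -0.05 (SE 0.17), 0.01 (SE 0.13) and 0 (SE 0.11), and none of them was called in either. Over all these lists, 247 genes in all, the fit called 16 higher and 6 lower in LBL against PBL, with 61 at an unadjusted p under 0.05, and 1 higher and 1 lower in LL against PL, with 26 at an unadjusted p under 0.05. The genes named as higher or lower in LBL against PBL or LL against PL in these family lists were picked after their calls were seen.

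**Figure D5:**
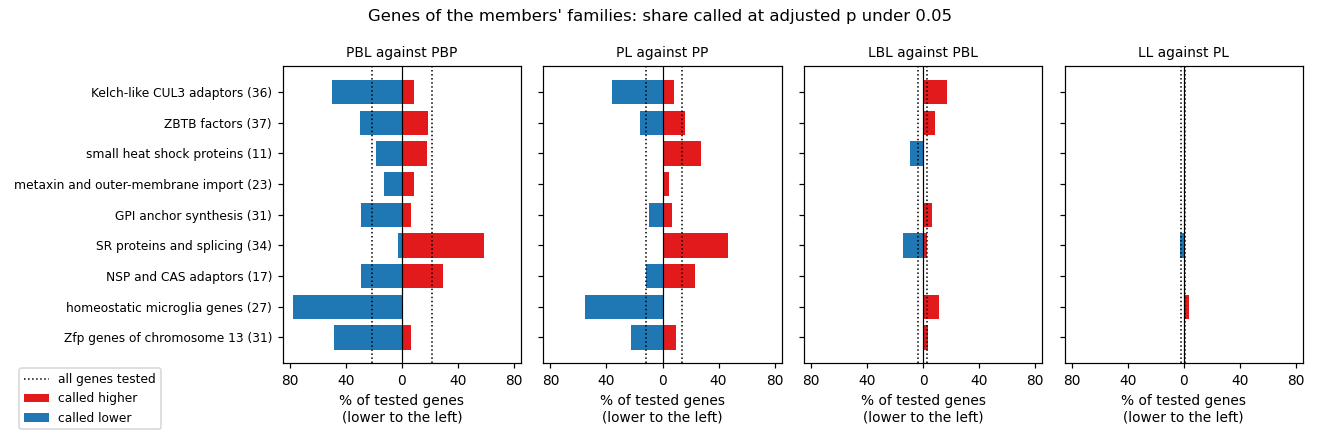
Share of the tested genes of each family list (number in brackets, members left out) called higher (red, to the right) or lower (blue, to the left) in each comparison; dotted lines give the share over all genes tested. Splicing genes extend to the right and homeostatic genes to the left after a first LPS, and few genes of any list are called in LL against PL.

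The genes whose profile was most like that of the members were sought by the root mean square difference, over the means of the 5 groups other than PP, between a gene's log2 change from PP and the median change of the members. Gm6352 (0.14), Rnf113a1 (0.15), and Exog, Mgme1 and Cyb5rl (0.16 each) came first. Exog, which encodes a mitochondrial nuclease, averaged 25.1 CPM in LBL, 11.4 CPM in PBL and 43.6 CPM in PBP, with log2 values of -1.94 (SE 0.23) in PBL against PBP and 1.14 (SE 0.23) in LBL against PBL. Mgme1, of a nuclease that maintains mitochondrial DNA, averaged 28.4 CPM in LBL, 14 CPM in PBL and 39.2 CPM in PBP, with -1.49 (SE 0.17) and 1.03 (SE 0.17). Gm6352 had mean levels of only 0.478 to 1.79 CPM, so its place rests on few counts. Rnf113a1 was at -1.3 (SE 0.47) and 1.24 (SE 0.47) and Cyb5rl at -1.34 (SE 0.49) and 1.06 (SE 0.49) in the same comparisons. These genes were selected for likeness, so no test of it is given.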

How the data were processed

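The authors' deposited table gives read counts per gene, whole numbers that were not normalized, for 29 libraries and 36982 genes. FastQC 0.11.9, cutadapt 2.10, TopHat, SAMtools 1.10, Picard 2.13.2, HTSeq 0.11.0 and the build GRCm39 are named in the submitters' processing notes, without role or order. No annotation release or strand setting is given in the sources used here. The RNA quality number, a score on which intact RNA is high, the age and the sorting day come from the sample table as the authors deposited it, and the sorter, per the labels, from the sample records.

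Genes were filtered with filterByExpr, which left 16632, libraries were scaled by TMM, and edgeR 4.0.16 in R 4.3.3 fitted a robust quasi-likelihood model to all libraries, with 1 coefficient per group which leaves 23 residual degrees of freedom, and its common biological coefficient of variation was 0.26. P-values are two-sided, adjusted by Benjamini-Hochberg over all genes tested, and measure only the spread between these samples, since the labels do not say more than 1 sample each. CPM uses TMM-scaled library sizes. No 2 libraries of a group agreed within sampling noise (chi-square per degree of freedom 5.47 to 32.45 over 56 pairs).

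The members and all gene lists were chosen with earlier results of these data known. Named genes are the 8 members, up to 3 genes per family list with the smallest adjusted p in PL against PP, and the 5 genes with the most similar profile. Alternatives were RLE scaling, DESeq2 1.42.0, limma 3.58.1 with voom, no filter, the compared groups alone, sorter, RNA quality or replicate number in the model, single sorters or days, and each library left out. Names, overlaps and promoters came from GENCODE and RefSeq on GRCm38, matched by symbol and gene identifier. Some genes of the family lists are not reported here.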

Additional observations from a re-analysis of the deposited data

Results flagged for a closer look

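Of the 48 groups of member values examined, 3 held a library that stood far from the rest of its group, a gap beyond Dixon's 95% limit, where chance gives about 1 in 20 groups. Zfp874a was at 14.8 CPM in LBL replicate 1, with the next library at 8.04 CPM, and without that library LBL against PBL was at 1.11 on the log2 scale. Mtx3 was at 6.36 CPM in PBL replicate 4, with the next at 3.73 CPM. Rsrp1 was at 1210 CPM in PP replicate 5, with the next at 463 CPM, and without it PL against PP was at -0.32. The cause was not tested for any of the 3.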

How the results depend on the processing

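Beside the 4 members called in PL against PP, leaving out 1 library gave 4 to 5, for the 8 in PBL against PBP 6 to 8, for the 0 in LL against PL 0 to 1, for the 7 in LBL against PBL 6 to 7 and for the 4 in PBL against PL 0 to 3. Mtx3 and Pigw lost their call in PBL against PBP without 1 of 7 libraries each. In LL against PL 1 member was called with RLE scaling, DESeq2, voom and the RNA quality number. In PBL against PL 2 were called with no filter, 1 with voom, with the compared groups alone and with the replicate block, and 0 with the sorter or the RNA quality number. In PBL against PBP 4 were called with the sorter and 5 among XDP libraries. Of the counts of the family lists, 77 moved by over 1.5 times under the other settings and 571 did not, and 73 moved with 1 library left out and 611 did not. The replicate numbers do not pair the libraries, since the correlations of same-numbered deviations lay between -0.23 and 0.24 and in no comparison were all over 0.1.

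Signs reversed as follows, and the cause was not tested. For the comparisons that chose the members and LL against PP, members without a call there are given with 1 library left out only. Pigw then ran from -0.37 to 0.36 in LL against PL, -0.15 to 0.43 in PL against PP and -0.11 to 0.35 in LL against PP. Zfp874a ran from -0.11 to 0.26 in LL against PL and Rsrp1 from -0.17 to 0.52 in LL against PP. In PBL against PBP, Mtx3 was at 0.12 with the sorter and 0.09 among XDP libraries, Dnajb1 at 0.47, 0.45 and, with RNA quality, 0, and Hspa1a at 2.16, 2.13, 0.43 and, by voom, 0.35. In PBP against PP, Hspb3 was at 0.02 with the sorter, 0.02 on the Astrios and 0.01 with RNA quality, Sh2d3c at -0.01, -0.02 and -0.08, and Pigw at -0.01 by voom. With the sorter, PBL against PL was at 0.1 for Klhl6, 0.45 for Mtx3 and 0.25 for Rsrp1, the difference of the earlier LPS effects at -0.06 for Mtx3 and -0.42 for Rsrp1, and that of the first LPS effects at 0.69 for Mtx3. With 1 library left out, PBP against PP ran from -0.04 to 0.13 for Klhl6, -0.12 to 0.02 for Hspb3, -0.01 to 0.23 for Pigw, -0.03 to 0.78 for Rsrp1 and -0.09 to 0.17 for Sh2d3c. LBL against LL then ran from -0.05 to 0.4 for Zfp874a and -0.07 to 0.47 for Sh2d3c, PBL against PL from -0.74 to 0.17 and the difference of the first LPS effects from -0.81 to 0.1 for Sh2d3c, and PBL against PBP from -1.07 to 0.82 for Hspa1a. At mean levels under 10 CPM counts limit the precision. This holds for Mtx3, Pigw and Zfp874a in most groups, Sh2d3c in LBL, PBL, LL and PL, and Zbtb14 and Hspb3 in PBL and PL.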
